A study of Drosophila melanogaster with 2 samples.

Results

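The cytosolic chaperonin CCT, also called TRiC, is built from 8 related subunits that form a pair of stacked rings. Newly made proteins, above all actins and tubulins, fold inside its cavity with the help of ATP. The fly genes CCT1 to CCT8 encode the subunits, one gene each, and each subunit holds a fixed place in the ring. The vertebrate names of the subunits run in the same order from alpha to theta. These 8 genes were chosen by name, out of 13968 protein-coding genes of the fly annotation, and each was searched for sites of the protein encoded by bbx. The choice was made with earlier results of these data known.

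The protein encoded by bbx (bobby sox) binds DNA through an HMG box, as SOX and TCF proteins do. Whole Drosophila melanogaster embryos of the transgenic strain bbx-GFP, aged 0 to 24 h and of uncollected sex, expressed bbx as an eGFP fusion, and their chromatin was immunoprecipitated with an anti-GFP antibody. The 2 samples are biological replicates of 1 group, and no untagged sample was used here, so only genomic sites can be compared. The sources used here do not say what drives the transgene. A whole embryo averages all tissues and all hours of embryogenesis. The conservative set, which holds the peaks that repeated between the replicates, had 4753 peaks, and the number of reads behind them is unknown.

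Each of the 8 CCT genes had exactly 1 conservative peak whose summit lay 500 bp or less from its transcription start site (TSS), and the 8 peaks were distinct. A gene with such a summit is called occupied below. Of all protein-coding genes, 30.8% had one, a count of 4304. No test of the CCT list against other genes was made. Neighbouring genes can share a summit, so genes are not independent of each other. At each of the 8 CCT genes the peak covered the annotated TSS nearest its summit.

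The DNA around the start sites is shown first, because a short sequence recurs in it. The windows below run from 200 bp before the TSS to 30 bp from it on, in the direction of transcription, in dm6 coordinates and with the bases of the release 6 genome from RefSeq. They are given for 5 of the 8 genes. Capitals mark ATCGAT, the core of the DNA replication-related element (DRE), and GGTCACAC, the core of the promoter element known as Motif 1. The DRE is bound by Dref and Motif 1 by M1BP, both regulators of housekeeping genes.
CCT1 (chr3R:22491410-22491639, minus strand): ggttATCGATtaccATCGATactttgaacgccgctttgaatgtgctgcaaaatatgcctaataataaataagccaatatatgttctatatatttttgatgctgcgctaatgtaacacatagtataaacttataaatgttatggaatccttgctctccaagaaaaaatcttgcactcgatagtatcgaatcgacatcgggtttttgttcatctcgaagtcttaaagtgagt
CCT7 (chr3R:8801364-8801593, plus strand): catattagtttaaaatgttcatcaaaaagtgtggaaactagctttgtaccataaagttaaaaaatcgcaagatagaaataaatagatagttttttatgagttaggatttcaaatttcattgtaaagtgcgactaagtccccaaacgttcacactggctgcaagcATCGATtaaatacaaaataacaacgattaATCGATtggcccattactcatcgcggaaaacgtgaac
CCT3 (chr3R:16647405-16647634, plus strand): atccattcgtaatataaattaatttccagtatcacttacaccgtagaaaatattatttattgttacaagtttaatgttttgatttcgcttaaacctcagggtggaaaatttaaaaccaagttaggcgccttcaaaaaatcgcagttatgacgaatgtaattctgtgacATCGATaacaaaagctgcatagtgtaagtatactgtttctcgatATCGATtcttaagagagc
CCT2 (chrX:9089313-9089542, plus strand): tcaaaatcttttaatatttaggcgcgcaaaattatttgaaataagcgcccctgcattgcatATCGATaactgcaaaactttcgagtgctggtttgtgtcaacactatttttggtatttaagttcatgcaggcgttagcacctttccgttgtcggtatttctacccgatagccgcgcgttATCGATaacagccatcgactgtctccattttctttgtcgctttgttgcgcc
CCT6 (chrX:15746448-15746677, plus strand): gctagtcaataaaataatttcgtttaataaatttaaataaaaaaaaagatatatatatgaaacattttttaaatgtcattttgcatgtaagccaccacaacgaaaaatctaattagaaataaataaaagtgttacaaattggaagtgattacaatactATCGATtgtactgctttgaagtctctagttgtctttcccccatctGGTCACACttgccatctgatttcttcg

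The CCT peaks differed in height by a factor of 4.82, and CCT1 stood first. Their genes lie apart from each other, with 3 on chromosome 3R, 2 on X, 2 on 2R and 1 on 2L. The authors listed the enrichment of each peak as a peak signal, in the pooled reads and in a first and a second column for the replicates. CCT1 (FBgn0003676), on 3R from 22489105 to 22491439 on the minus strand, had a pooled signal of 352 and replicate values of 194 and 145 (169 ± 35.2, SD, n = 2). Its IDR, the irreproducible discovery rate that measures how well a peak's rank repeats between replicates, was 1e-05, the smallest value in the list. The peak reached percentile 88.4 of the pooled signals over all occupied protein-coding genes. Its summit lay 56 bp before the TSS.

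CCT7 (FBgn0037632) followed, on 3R from 8801564 to 8806234 on the plus strand. Its pooled signal was 249, its replicate columns held 150.0 and 97.2 (124 ± 37.4, SD, n = 2), and its IDR was also 1e-05. The higher CCT7 value lay above the lower CCT1 value, so the replicate ranges of these top genes overlapped. Of all conservative peaks, 17.0% had the smallest IDR, and CCT1 and CCT7 were the only CCT genes among them. Both had narrow peaks, of 258 bp at CCT1 and 184 bp at CCT7, while the other 6 had the width of 356 bp that 73.6% of conservative peaks shared.

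CCT3, CCT2 and CCT8 formed the middle of the order. CCT3 (FBgn0015019), on 3R from 16647605 to 16649978 on the plus strand, had a pooled signal of 168 and replicate values of 90.9 and 77.6 (84.3 ± 9.43, SD, n = 2; IDR 6.04e-05). CCT2 (FBgn0030086), on the plus strand of X from 9089513 to 9092826, had 140.1 in the pooled reads and 83.9 and 60.6 in the replicates (72.3 ± 16.5, SD, n = 2; IDR 0.000118). CCT8 (FBgn0284436), on 2R from 8904844 to 8906990 on the minus strand, had 94.6, with 59.6 in the first column and 72.0 in the second (65.8 ± 8.77, SD, n = 2; IDR 0.000240). The replicate ranges of CCT3 and CCT2 overlapped, as did those of CCT2 and CCT8. The lower CCT7 value, by contrast, lay above both CCT3 values.

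CCT6, CCT4 and CCT5 had the lowest peaks and could not be put in order. CCT6 (FBgn0027329), on the plus strand of X from 15746648 to 15748971, had a pooled signal of 82.1 with 33.2 and 46.6 in the replicates (39.9 ± 9.48, SD, n = 2; IDR 0.00318). CCT4 (FBgn0032444), on 2L from 12690336 to 12692934 on the minus strand, had 73.8, with 45.7 and 27.6 in the replicates (36.7 ± 12.8, SD, n = 2; IDR 0.00426). CCT5 (FBgn0010621), on 2R from 12174802 to 12177516 on the plus strand, had 73.1, with 42.6 and 34.5 (38.5 ± 5.74, SD, n = 2; IDR 0.00219). The 3 means differed by less than the larger SD of the neighbours compared, and CCT4 stood above CCT5 in the pooled reads but below it in the replicate mean. All 6 replicate values of these genes lay below both values of CCT8. In pooled signal they stood at percentiles 20.7, 13.6 and 13.1 of the occupied protein-coding genes.

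**Figure D1:**
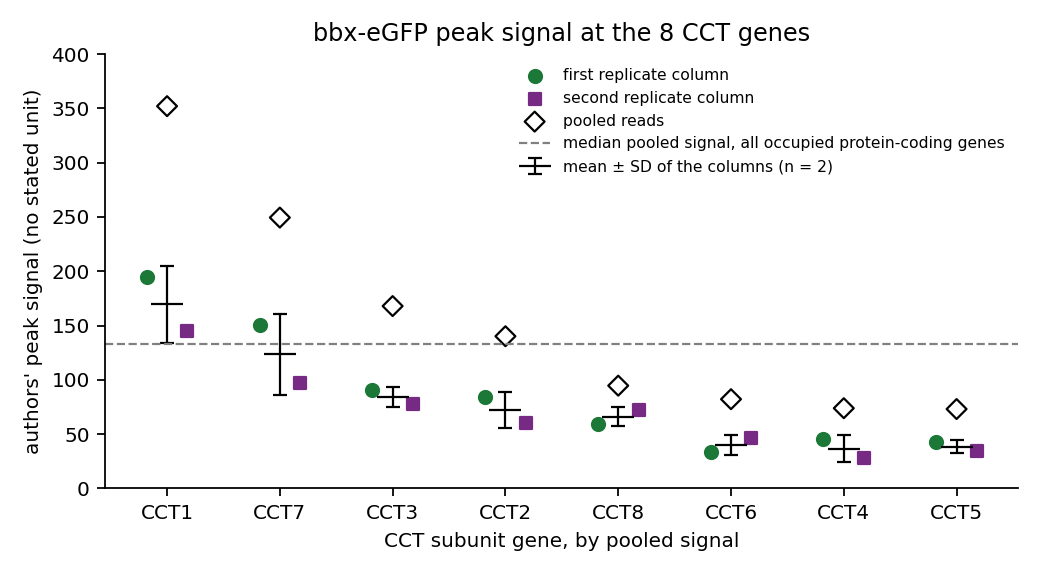
Peak signal (the authors' value, without a stated unit) at the 8 CCT genes, in falling order of the pooled signal. Circles and squares are the replicate columns, bars their mean ± SD (n = 2), diamonds the pooled reads, and the dashed line the median pooled signal of 133 over 4304 occupied protein-coding genes. CCT1, CCT7, CCT3 and CCT2 lie above that line and the other 4 below it.

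As a set, the CCT peaks were neither high nor low among occupied genes. Their median pooled signal was 117, against a median of 133 and quartiles of 86.8 and 235 over the 4304 occupied protein-coding genes. Of the 8, 4 lay above that median and 4 below. CCT1 and CCT7 were above the upper quartile, and CCT6, CCT4 and CCT5 were below the lower one. The promoter peaks next to CCT1 in pooled signal were those of cass (353) and a6 (352) above it and CG12010 (352) and tRNA:Ala-TGC-2-1 (351) below it. Next to CCT5 stood CG5191 and Tmem63 (both 73.1) above and CG6766 and CG2124 (both 73.0) below. This likeness is one of pooled signal alone, from 1 pooled list.

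The replicate lists differed at the weak members. In the list called on replicate 1 alone, all 8 genes had a thresholded peak, where 30.6% of protein-coding genes did. In that of replicate 2 alone, 5 of 8 had one, where 23.7% of protein-coding genes did. The genes without one were CCT4, CCT5 and CCT6. Their peaks were in the ranked list of replicate 2 with IDRs of 0.0638, 0.0303 and 0.0138, above the authors' threshold of 0.01. In replicate 1 the same genes had IDRs of 0.00434, 0.00671 and 0.00556, closer to the threshold than those of the other 5. The IDR of a single replicate rests on a pair of inputs within it, whose making the sources used here do not describe. In replicate 2 the signals of that pair were 13.4 and 13.9 at CCT4 and 76.1 and 65.4 at CCT1. A stricter IDR between the replicates, of at most 0.001, also left CCT1, CCT2, CCT3, CCT7 and CCT8 and dropped CCT4, CCT5 and CCT6. At that setting 21.9% of protein-coding genes had a summit.

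The first column was higher than the second at 6 of the 8 genes, and CCT6 and CCT8 went the other way. The log2 ratio of the first to the second column ran from -0.49 at CCT6 to 0.73 at CCT4. The median over the 8 genes was 0.37, beside 0.32 (SD 0.51 across peaks) over all 4753 conservative peaks, of which 74.6% were higher in the first column. At all 8 genes the first column held the signal listed for replicate 1 and the second that listed for replicate 2.

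The summits sat at the start sites. All 8 lay within 100 bp of the TSS, where 22.6% of protein-coding genes had a summit and 69.8% of the occupied ones had their strongest. Before the TSS came the summits of CCT2 (-83 bp), CCT1 (-56), CCT6 (-52), CCT4 (-46), CCT7 (-32) and CCT8 (-6), where negative values lie upstream. Those of CCT3 (8 bp) and CCT5 (16 bp) lay just inside the gene. The median offset of -39 bp was the same as over all occupied protein-coding genes, whose quartiles were -106 and -2 bp. The summits of the replicates were 5 bp apart at CCT7 and 66 bp apart at CCT5, with a median of 21.5 bp over the 8 genes and 22 bp over all conservative peaks. At CCT3 they fell on either side of the TSS, at 1 and -29 bp, so its side of the TSS differed between the replicates.

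CCT5 was the only CCT gene with more than 1 annotated TSS. Its conservative summit belonged to the first TSS, at 12174802. A second ranked summit lay 219 bp farther into the gene, near the TSS at 12175096, with a pooled signal of 41.1 and an IDR of 0.652, far above the threshold of 0.01.

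Inside the gene bodies the signal was lower than at the start sites in all 8 genes. Beyond 500 bp from the TSS the gene bodies held 39 ranked summits in all, 3 to 8 per gene, and none was in the conservative set. The lowest IDR among the 39 ranked summits was 0.0244, in CCT7. Another gene, CG9839, lies inside CCT7 on the minus strand and starts at 8805802. How far the body summits of CCT7 lay from that start was not measured. The peak at the TSS was 10.3 times the highest body signal at CCT1, but 1.84 times at CCT4, 1.86 times at CCT6 and 1.91 times at CCT5. The ranked list, which has no IDR threshold, is permissive: by it, 76.1% of all protein-coding genes would count as occupied.

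**Figure D2:**
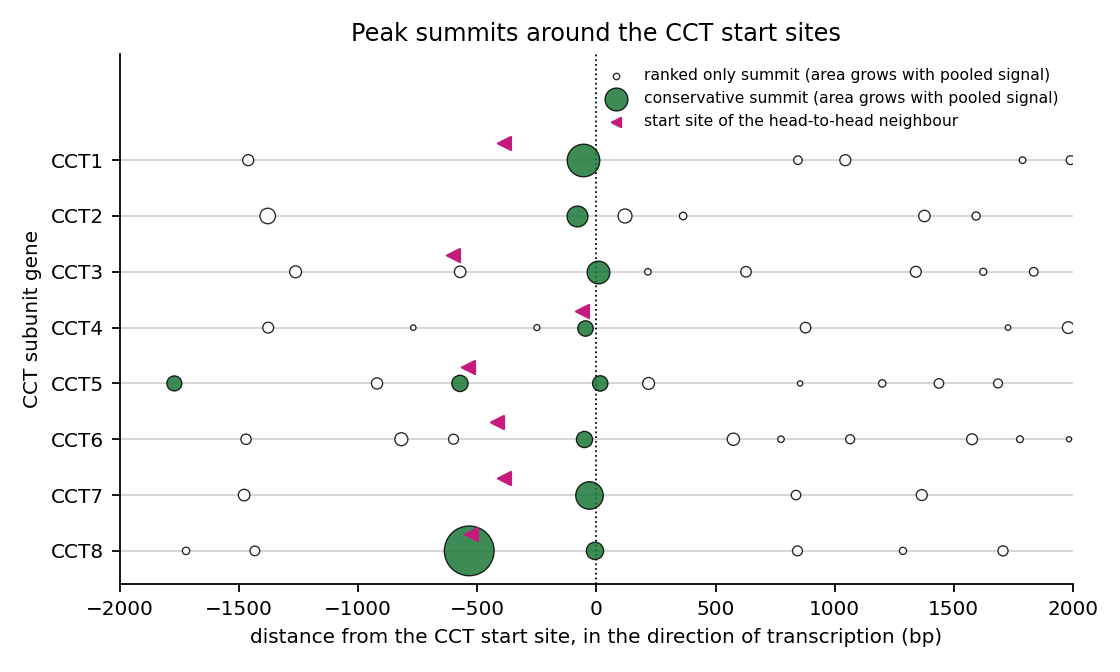
Summits of ranked peaks within 2000 bp of each CCT start site, with distance in bp in the direction of transcription. Filled circles are conservative peaks, open circles ranked peaks outside that set, area grows with the pooled signal, and triangles mark the start site of a head-to-head neighbour. Each gene has a filled circle at its start site, and CCT8 has a larger one (829.7) at its neighbour.

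Most CCT genes share their upstream region with a neighbour that is transcribed away from them. At 7 of the 8, all but CCT2, a protein-coding TSS lay within 1000 bp upstream on the other strand. Of all protein-coding genes, 36.2% had such a head-to-head neighbour, and of the occupied ones 59.3%. Genes with such a neighbour were occupied in 50.5% of cases and the others in 19.7%. A summit near the start sites of both neighbours counts for both, and any TSS of a gene counted for both traits. Part of that difference can therefore come from the counting alone. With each summit given to the nearest gene alone, 24.1% of protein-coding genes were occupied instead of 30.8%, and the contrast was not recomputed. The part of the arrangement in the CCT count was not tested. CCT2, the exception, lay downstream of CG6999 on the same strand, and its own peak had a pooled signal of 140.1.

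At 4 CCT genes the neighbour counted as occupied through the CCT summit. CCT4 and CG6153 had start sites 59 bp apart, and the summit fell between them, 46 bp from the TSS of CCT4 and 13 bp from that of CG6153. This was the only CCT summit closer to another gene, and CCT4 lost its peak when each summit was given to the nearest gene alone. CCT7 lay 388 bp from the shared TSS of Pif1A and Pif1B, and its summit was 356 bp from theirs. CCT6 lay 417 bp from CG8944 with a summit 365 bp away. CCT1 lay 390 bp from tHMG1, a gene for an HMG-box protein of the testis, with a summit 334 bp away. At CG6153, Pif1A, Pif1B, CG8944 and tHMG1 the shared peak was the strongest conservative peak in reach.

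At the other 3 genes the neighbour lay farther off. CG30349, 528 bp from CCT8, had a conservative peak of its own with a pooled signal of 829.7 and replicate values of 485 and 362 (423 ± 87.0, SD, n = 2), against 94.6 at CCT8. The summit of that peak was 534 bp from the CCT8 TSS, just outside the distance of 500 bp. Counting any summit within 1000 bp, or any part of a peak within 500 bp, would give CCT8 that peak and put it first among the CCT genes. CCT5 lay 538 bp from a TSS of Oda, the gene of the ornithine decarboxylase antizyme. A conservative summit with a pooled signal of 82.6 lay 573 bp before the CCT5 TSS, close to that of Oda, whose strongest peak (767) lay at another of its start sites. CG10324, 601 bp from CCT3, had no conservative summit, and the strongest ranked one near its TSS had a signal of 38.1 with an IDR of 0.678.

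ATCGAT occurred in all 8 promoters, in the window from 250 bp before the TSS to 50 bp from it on. The same held for 23.1% of all 13968 protein-coding promoters of that length and for 46.9% of the occupied ones. For genes other than CCT, the window was cut at the TSS of the longest coding sequence, while occupancy counted any TSS. The window searched can therefore lie at a start site without the summit. This limit holds for all motif shares and copy numbers of occupied genes given below. At 7 of the 8, all but CCT1, a copy began within the 50 bp before the TSS, which was so for 10.3% of all promoters and 25.4% of the occupied ones. The first of these copies began 42 bp before the TSS, at CCT6. CCT8 followed at 39 bp, CCT4 at 38, CCT7 at 36 and 7, CCT5 at 34, CCT3 at 32 and CCT2 at 21. In the sequences printed above, CCT1 holds its copies near the far end, 196 and 186 bp before the TSS, and they lie 137 and 127 bp from its summit. The sequence and this window near the TSS were singled out after the matches had been seen.

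The full octamer TATCGATA was rarer. It occurred at CCT2, with copies 140 and 22 bp before the TSS, and at CCT5, 35 bp before it, or 2 of 8 promoters. Of all promoters, 9.16% held it, and of the occupied ones 23.7%. ATCGAT lies inside the octamer, and CGATA, which the boundary protein BEAF-32 recognises, overlaps both. CGATA occurred in all 8 CCT promoters, in 47.2% of all promoters and in 70.4% of the occupied ones. At CCT1 it began 25 and 19 bp before the TSS, where that gene had no ATCGAT. The distance from the summit to the middle of the nearest ATCGAT was 1 bp at CCT7, 7 bp at CCT3, 11 bp at CCT4, 13 bp at CCT6, 30 bp at CCT8, 47 bp at CCT5, 53 bp at CCT2 and 127 bp at CCT1. The gap between the replicate summits exceeded that distance at CCT3, CCT4, CCT5, CCT6 and CCT7.

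**Figure D3:**
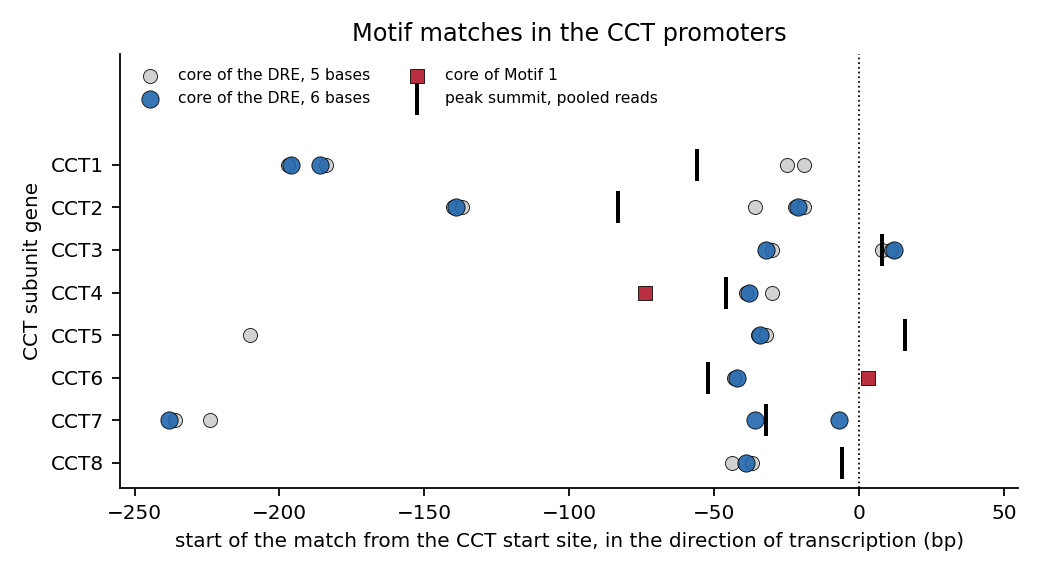
Matches to the 6-base and 5-base cores of the DRE and to the core of Motif 1 in the CCT promoters, by where each match begins, in bp from the start site. Vertical bars are the peak summits of the pooled reads. At 7 genes a 6-base match begins within 50 bp before the start site, and at CCT1 the nearest begins 186 bp before it.

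In the pooled reads, the 4 CCT genes with the higher peaks held more copies of ATCGAT than the 4 with the lower ones. CCT7 had 3 copies in the window and CCT1, CCT2 and CCT3 had 2 each, with pooled signals from 140.1 to 352. CCT4, CCT5, CCT6 and CCT8 had 1 each, with pooled signals from 73.1 to 94.6, so the pooled ranges did not overlap. In the second replicate column they did, since CCT8 (72.0) stood above CCT2 (60.6). With summits within 1000 bp, CCT8 would take the peak of 829.7 and stand first with 1 copy. Over all occupied protein-coding genes the median pooled signal was 104 with no copy, 162 with 1, 226 with 2 and 308 with 3 or more. The share of promoters that were occupied was 21.3%, 53.3%, 83.4% and 92.0% in the same order. The CCT genes with 1 copy lay below the lower quartile of 103 of such genes, and CCT2 lay just below that of genes with 2 copies, 142. Promoters are not replicates, and no test was made of this order, which was seen in the data first.

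**Figure D4:**
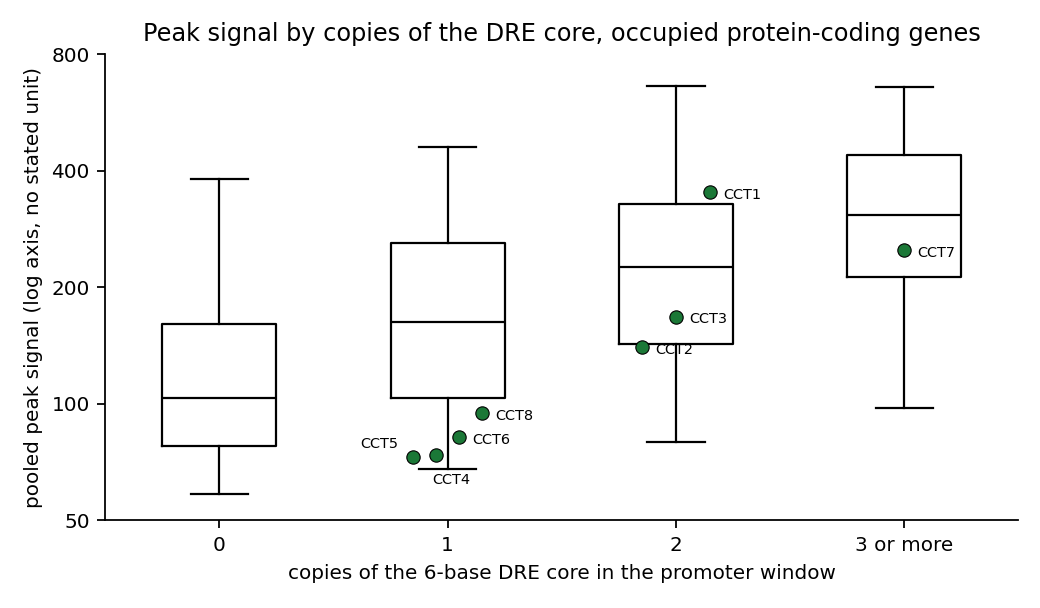
Pooled peak signal, on a log axis, of occupied protein-coding genes by the number of copies of the 6-base DRE core in the promoter window. Boxes give the median and quartiles, whiskers the 5th to 95th percentiles, and green points the 8 CCT genes. Medians rise from 104 without a copy to 308 with 3 or more, and the 4 CCT genes with 1 copy lie below their box.

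Both features together were common in the CCT genes. Of the 8, 6 had a head-to-head neighbour and a copy of ATCGAT beginning within 50 bp before the TSS. Of all 13968 protein-coding genes 819 had both, and of the 4304 occupied ones 669 did. Among the 819 protein-coding genes of that kind 81.7% were occupied, against 16.0% of the 8299 genes with neither. Summits that count for both neighbours enter these shares too. CCT1 had the neighbour without the copy and CCT2 the copy without the neighbour, groups of which 44.5% and 68.9% were occupied.

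Other sequences were found at fewer CCT genes. GGTCACAC occurred at CCT4, 74 bp before the TSS, and at CCT6, 3 bp after it. Both were among the 3 lowest peaks, but CCT5 lacked the motif, and a link to signal was not tested. GGTCACAC was found in 7.64% of all promoters and in 12.4% of the occupied ones. AACAAT, a core of the sequences that SOX proteins bind, occurred at CCT1, CCT3 and CCT8. It was found in 31.9% of all promoters and in 35.2% of the occupied ones. GAGAG, bound by the GAGA factor, occurred at 3 CCT genes, in 29.9% of all promoters and in 26.6% of the occupied ones. For TATAAA these values were 3, 45.6% and 42.2%. The TATAAA matches began 71 bp or more before the TSS, at CCT1, CCT3 and CCT5. No match to the E-box CACGTG (4.17% of all promoters) or to the heat shock element (0.415%) was found in the 8 windows. All searches covered both strands. The share of G and C ran from 30.3% at CCT6 to 46.3% at CCT4, with a median of 36.2%, beside 38.0% over all promoters and 37.3% over the occupied ones.

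The 30 other genes listed were partners and substrates of CCT and, beside them, 5 genes of the chaperonin of the mitochondria. Of these 30, 15 had a conservative summit within 500 bp of a TSS, with pooled signals from 62.9 to 424. Of all protein-coding genes 30.8% had one, and no test was made of the difference. Prefoldin, which hands unfolded actin and tubulin to CCT, had a summit at 3 of 6 subunit genes. Pfdn1 had a pooled signal of 307 (159 ± 39.2, SD, n = 2), Pfdn5 205 (104 ± 32.0) and mgr, the gene for prefoldin subunit 3, 176 (90.4 ± 2.26). The summits of Pfdn1 and mgr also counted for CG9150 and Irbp. Pfdn2, Pfdn4 and Pfdn6 had none, although a ranked peak at Pfdn2 had an IDR of 0.0506.

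The phosducin-like genes, whose products modulate the chaperonin in yeast and mammals, all had a summit, 3 of 3. That is a count of 3 genes, beside 30.8% of all protein-coding genes, and it was not tested. viaf had the highest signal of the partner genes, 424 in the pooled reads and 213 ± 76.2 in the replicates (SD, n = 2), above all 8 CCT genes. CG7650 came next with 363 (181 ± 73.2, SD, n = 2). CG4511, by contrast, had 72.1 (39.4 ± 1.31), within the range of CCT4, CCT5 and CCT6 by replicate mean, with a summit 195 bp before its TSS that also counted for CG6567.

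The tubulin cofactors, which join alpha and beta tubulin after the chaperonin, had a summit at 3 of 5 genes, beside 30.8% of all protein-coding genes. Tbca had a pooled signal of 134, Tbce 68.8 and Tbcd 65.8, and Tbcb and Tbcc had none. The summit of Tbcd also counted for CG11723. Among substrates, 5 of 11 genes had one, which was not tested against that share. betaTub56D (156) and alphaTub84B (133), the main tubulin genes, stood first. The cytoplasmic actin genes Act5C (99.0) and Act42A (81.6) followed. At alphaTub84D the summit (62.9) lay 385 bp before the TSS and was shared with Rtnl2. The muscle actin genes Act57B, Act79B, Act87E and Act88F had none. With so few genes beside a share of 30.8%, their contrast with the cytoplasmic actin genes is no result. fzy and fzr, the genes of the activators of the anaphase-promoting complex, also had none, with ranked peaks at IDRs of 0.0111 and 0.0253.

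The chaperonin of the mitochondria, a separate complex of the bacterial type, was also listed. Of its 5 genes, Hsp60A alone had a summit, with a pooled signal of 143 (77.0 ± 10.9, SD, n = 2) 202 bp before the TSS. Hsp60B, Hsp60C, Hsp60D and CG11267, the gene of the cochaperonin Hsp10, had none. With 30.8% of all protein-coding genes occupied, 1 of 5 is near the background and is no result about these genes. Of the 30 listed genes, 15 had no summit within 500 bp. Expression was not measured, so inactive genes cannot be told from active genes without a peak.

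**Figure D5:**
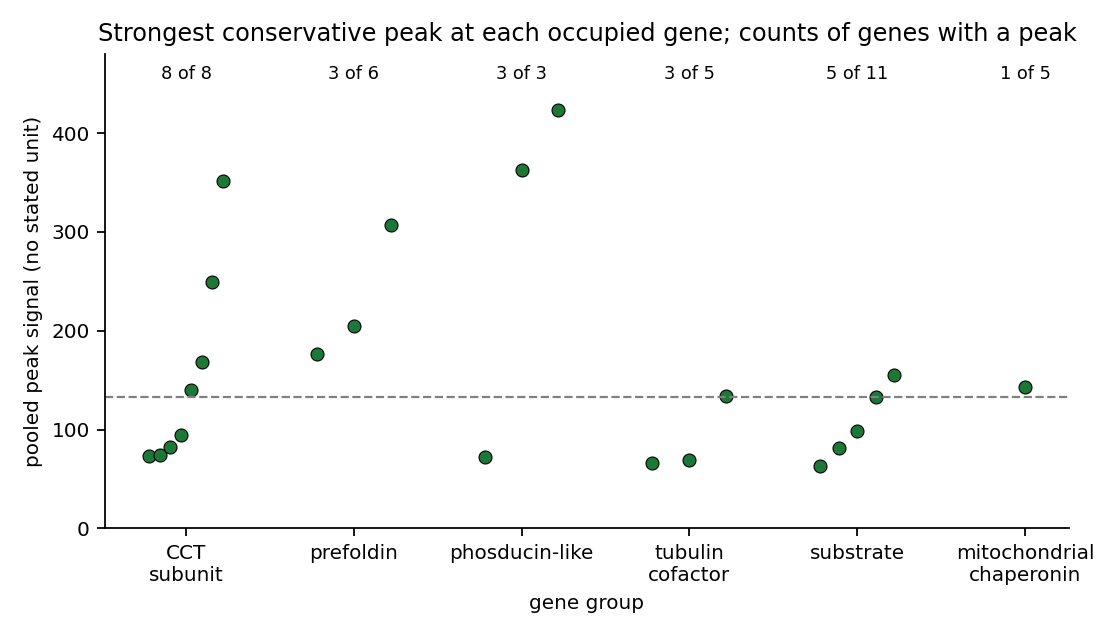
Pooled signal of the strongest conservative peak within 500 bp of a start site, for the occupied genes of each group, with the count of occupied genes above each column. The dashed line is the median of 133 over all occupied protein-coding genes. All 8 CCT genes and 15 of the 30 other genes are occupied, beside 30.8% of all protein-coding genes, and the highest point is viaf at 424.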

How the data were processed

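Per the deposited text files, the authors derived the peak lists on dm6 from alignments of the replicates and 1 control alignment. No source used here names the caller or the aligner. Chromatin was sonicated to 200 to 800 bp, per the labels. The deposited peak signal is the authors' enrichment value, with no scaling stated. The deposited score and -log10 value express the IDR. The lists hold no read totals, so depth is unknown. The conservative set, thresholded at an IDR of 0.01, was the main set. Its signals by replicate were read from the ranked list, where no header names the columns. The first column matched a peak of replicate 1 at 4741 of 4753 conservative peaks, the second one of replicate 2 at 4720, and 0 matched the other way round. Summits by replicate came from each replicate's own list, and 6 further columns were not used.

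Start sites came from Ensembl release 115 without transposable element genes, positions are 1-based, and bases came from the RefSeq release 6 genome. Each promoter window ran from 250 bp before to 50 bp after 1 TSS, that of the longest coding sequence or, for CCT genes, the TSS nearest the summit. At other genes with several start sites, that TSS need not be the one near a summit. Motifs were searched on both strands. The windows of CCT4, CCT5 and CCT8 are not printed here. The rule for naming took all CCT genes, genes that share or flank their peaks, and the listed partner, substrate and mitochondrial chaperonin genes. It also took the promoter peaks next to CCT1 and CCT5 in signal. The members and lists were chosen with earlier results of these data known, and the added motif windows, copy numbers and head-to-head distance of 1000 bp after seeing the data. No tests were made: there is 1 group, so no groups can be compared. The search code was tested on simulated data. Alternatives were the other thresholded set, other IDR thresholds and distances, other ways of assigning summits, single replicates and other motif windows. Python 3.11.15, NumPy 2.4.6, pandas 2.3.3 and Matplotlib 3.10.9 were used.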

Additional observations from a re-analysis of the deposited data

How the results depend on the processing

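All 8 CCT genes were occupied in the series' other thresholded set (34.6% of protein-coding genes), at an IDR of at most 0.05 (37.3%), with summits within 100 (22.6%), 200 (26.4%) or 1000 bp (33.6%), and with any part of a peak within 500 bp (32%). At an IDR of at most 0.001 the count was 5 (21.9%), and with each summit given to the nearest gene alone it was 7 (24.1%). Leaving out a replicate gave 5 to 8, with CCT4, CCT5 and CCT6 lost without replicate 1. The median pooled signal of 117 became 168 at an IDR of at most 0.001, 154 with summits within 1000 bp or any part of a peak in reach, and 140 with the nearest gene alone. With a replicate left out it was 71.8 to 77.6, on the scale of 1 replicate. With no IDR threshold, added after seeing the data, 10624 protein-coding genes and 25 of the 30 other listed genes were occupied instead of 4304 and 15. The count of 2 CCT promoters with TATCGATA became 8 with ATCGAT in the same window and 7 with ATCGAT beginning within 50 bp before the TSS, both added after seeing the data. For single CCT genes, 17 alternative signals moved by more than the SD of the replicates and 64 did not. The 64 repeated the main value, because those settings kept the same pooled peak. The 17 included every signal taken from a single replicate, on another scale than the pooled reads. Of the summit offsets, 12 moved by more than the spread of the replicate summits and 77 did not. Most of the 77 likewise kept the same pooled summit, so these counts do not measure how stable the values are. The offset changed sign at CCT3, from 8 to -29 bp without replicate 1, and at CCT5, from 16 to -573 bp with summits within 1000 bp or any part of a peak in reach. No paired analysis was possible because there is 1 group and no test.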
